A study of Mus musculus with 42 samples.

Results

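The comparison is of the uterus of female mice that were heterozygous for mutant Hoxa9,10,11 and homozygous for mutant Hoxd9,10,11 (AHDK) against the wild-type uterus (WT). Its members were chosen by their titles, and they are 3 AHDK and 3 WT arrays, 6 of the 42 arrays of the series. All probe sets with 1 gene symbol were used, 21789 of 28856, which gave 19938 genes. The other uterus groups used were DKO (homozygous for mutant Hoxd9,10,11, with both Hoxa copies normal), AKDH (homozygous for mutant Hoxa9,10,11 and heterozygous for mutant Hoxd9,10,11) and AKO (homozygous for mutant Hoxa9,10,11), with 3 arrays each. AHDK therefore differs from DKO by 1 mutant Hoxa copy, and AHDK and AKDH are each missing all but 1 normal copy of the paired Hoxa and Hoxd sets. Mice were adults of 3 to 7 months on a mixed CD1/129 background, and each uterus was taken in diestrus, the resting phase of the oestrous cycle. The labels name no Cre driver or tissue-limited promoter, and they do not say how the alleles were made or whether mutants and WT were littermates. Arrays of 1 genotype are labelled as biological replicates without being tied to animals, and p-values cover only how far these samples spread.

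Hox genes of paralogous groups 9 to 11 at the HoxA and HoxD clusters encode transcription factors that are expressed in nested domains along the Müllerian duct, the embryonic tube that becomes oviduct, uterus, cervix and upper vagina. Loss of Hoxa10 or Hoxa11 in mice is known to impair implantation and to shift the identity of the uterus towards more anterior tract. Paralogs of the same group can replace each other in part. The adult uterus is a luminal and glandular epithelium on a stroma that houses macrophages, dendritic cells, eosinophils and neutrophils, inside 2 layers of smooth muscle.

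Values are deposited log values, taken as log2, in which every probe set has a median of 0 over the 21 female arrays. A value of 1 thus means about 1 doubling above the middle female array, and levels of different genes cannot be compared. Genes were called where the Benjamini-Hochberg p of the limma fit over all 19938 genes was below 0.05, and every change is the AHDK mean minus the WT mean on the log2 scale. The 15 uterus arrays had medians from -0.0233 to 0.0371 and SDs from 0.187 to 0.374, with the widest spread in WT array 1. Tissue was checked against the 6 oviduct arrays: motile cilia genes averaged -0.27 to -0.10 in AHDK uterus and -0.15 to -0.01 in WT uterus, far under 3.00 to 3.41 in WT oviduct. Ovary and oviduct genes averaged -0.03 to 0.30 in AHDK uterus and -0.08 to 0.00 in WT uterus, under 1.02 to 2.03 in WT oviduct. Since centring removed absolute signal, no marker could be called absent.

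Of the 19938 genes, 704 were called (3.53%), 458 higher in AHDK (2.3%) and 246 lower (1.23%). The arrays of the 2 genotypes did not overlap for 5904 genes (29.6%; AHDK lower in 15.4%), and this held for all 704 called genes. The median rise among called genes was 0.68 and the median fall -0.55, beside a median of -0.02 over all genes, and 121 rises and 36 falls reached 1. Protein-coding genes made up 456 of the rises and 185 of the falls, whereas other kinds of gene gave 2 rises and 61 falls, 19 of them among 53 small nucleolar RNA genes. Leaving out 1 array moved the count by more than 1.5 times for every array except AHDK array 2: 31, 505 and 151 genes were called without AHDK arrays 1, 2 and 3, and 355, 467 and 172 without WT arrays 1, 2 and 3. Of the 704 genes 28 were called whichever array was left out. Every other gene named as called against WT lost its call without at least 1 of the 6 arrays.

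Of the targeted genes, 0 of 6 were called. Hoxa11, which patterns stroma and is needed for implantation, had 0.94, 1.28 and 1.70 in AHDK and 2.75, 1.23 and 2.19 in WT (change -0.75, SE 0.56, adjusted p = 0.468). The groups overlapped, while AKDH, with no normal Hoxa copy, had -1.57, -0.61 and 0.00. Hoxd11 had -0.21, 0.00 and 0.25 in AHDK, all under the WT values of 1.02, 0.36 and 1.19, and its change of -0.84 (SE 0.34) was not called (adjusted p = 0.183). Hoxd10 (0.13) and Hoxd9 (-0.01) differed from WT by less than their SE of 0.31 and 0.30, and Hoxa10 (-0.44) and Hoxa9 (-0.29) were not called either. Each targeted gene has 1 probe set whose place relative to the mutation is not known here, and these values leave the AHDK labels unchecked.

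Among Hox genes that were not targeted, Hoxc10, a paralog of the targeted group 10 genes, was the only member of 18 HoxB and HoxC genes to be called. It had 1.07, 0.97 and 0.76 in AHDK, against -0.97, -0.68 and -0.81 in WT (change 1.75, SE 0.29, adjusted p = 0.0119). The 3 DKO arrays, at -0.36, -0.22 and -0.27, lay between those of AHDK and WT, and the difference between AHDK and DKO (1.21) was not called (adjusted p = 0.336). Its call was lost without AHDK array 1. Hoxc8 had -0.43, -0.50 and -0.70 in AHDK and -1.17, -1.44 and -1.52 in WT, which missed the threshold (0.83, adjusted p = 0.0678). Of 15 untargeted HoxA and HoxD genes and 8 Hox cofactors 0 were called. These counts stand beside 3.53% of all genes called in either direction. With 2 groups only, 5 HoxB and HoxC genes were called (4 higher, 1 lower), 1 untargeted HoxA or HoxD gene (lower) and 0 cofactors. With array weights, which called 3227 of all genes, the counts were 4, 5 and 3.

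The HoxD cluster also carries the microRNA gene Mir10b, and its relative Mir10a and the separate Mir196 genes lie in other Hox clusters. The arrays read the gene or precursor and not the mature strand. Mature sequences are shown because Mir10b was called. Mir10a, which has the same seed, was not called, and neither were the Mir196 genes, which share a different seed. Sequences are from RefSeq, build GRCm38.p6, with the seed (bases 2 to 8) in capitals.
mmu-miR-10b-5p: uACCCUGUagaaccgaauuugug
mmu-miR-10a-5p: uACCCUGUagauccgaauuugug
mmu-miR-196b-5p: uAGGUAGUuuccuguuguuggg
mmu-miR-196a-5p: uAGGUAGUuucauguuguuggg
The first lies at chr2:74726074-74726096 on the plus strand, within HoxD, the second at chr11:96317186-96317208 on the plus strand, within HoxB, and miR-196b-5p at chr6:52230129-52230150 on the minus strand, within HoxA. The sequence of miR-196a-5p lies at chr11:96265187-96265208 in Mir196a-1 and at chr15:102973365-102973386 in Mir196a-2, both on the plus strand. Mir10b had 0.54, 0.00 and 0.50 in AHDK, against 1.46, 1.54 and 1.73 in WT (change -1.23, SE 0.27, adjusted p = 0.0317). It was also low in DKO, at 0.00, -0.02 and -0.24, and AHDK and DKO were not called as different (0.43, adjusted p = 0.754). The call was lost with any 1 of the 6 arrays left out. Mir10a (-0.38, adjusted p = 0.247), Mir196b (-0.95, adjusted p = 0.11) and Mir615 of HoxC (-0.37, adjusted p = 0.132) were not called. Of all 297 microRNA genes, a list also taken up after values were seen, 18 fell and 0 rose, with a median of -0.08 beside -0.02 over all genes and 1.23% of all genes called lower.

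**Figure D1:**
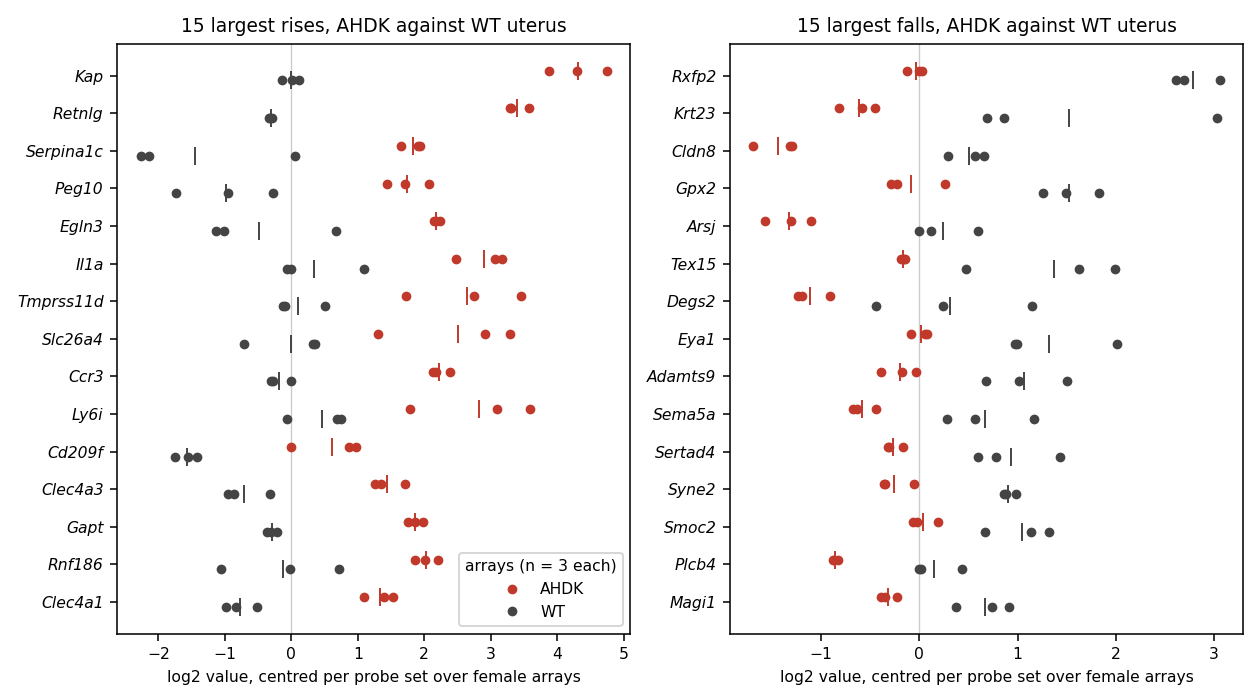
The 15 largest called rises (left) and falls (right), 1 row a gene. The horizontal axis is the centred log2 value; red points are the 3 AHDK arrays and black points, slightly lower in each row, the 3 WT arrays, with short lines at group means. Only genes whose AHDK points lie wholly to 1 side of the WT points could be picked. The means differ by 4.31 for Kap and by -2.83 for Rxfp2.

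Rxfp2, the receptor of insulin-like 3, a hormone best known in mice for testis descent, fell most. It had 0.00, -0.13 and 0.03 in AHDK, against 3.06, 2.61 and 2.69 in WT (-2.83, SE 0.25, adjusted p = 0.000539). All AHDK arrays lay far under all WT arrays, while DKO had 1.99, 3.25 and 2.47, close to WT. The direct difference between AHDK and DKO was called (-2.60, SE 0.25, adjusted p = 0.00391), and this call and that against WT were kept whichever of their 6 arrays was left out. AKDH had -0.66, -0.64 and -0.29, and AKO had -0.15, 0.01 and 0.16. No AHDK, AKDH or AKO array reached the lowest DKO or WT array. With AHDK and DKO fitted alone the difference was as large and not called (adjusted p = 0.167). Of the 15 relaxin family and Slit-Robo genes no other was called, beside 1.23% of all genes called lower. The Slit receptor Robo2 had 1.14, 1.19 and 1.44 in AHDK and 3.55, 1.59 and 2.40 in WT (-1.26, adjusted p = 0.0719).

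Of the other large falls, Cldn8 and Krt23 are the 2 called members of the luminal epithelium list, in which 19 of 28 genes had a higher mean in AHDK. Of all 19938 genes, 8796 had a higher mean in AHDK and 1.23% were called lower. Cldn8, a claudin that seals tight junctions, had -1.69, -1.30 and -1.32 in AHDK, against 0.66, 0.57 and 0.29 in WT (-1.94, SE 0.15, adjusted p = 0.000325). Its call was kept whichever array was left out. The DKO arrays lay between the 2 genotypes, at -0.39, -0.34 and -0.30, and AHDK was lower than DKO by the direct test (-1.09, adjusted p = 0.0454). Krt23, an epithelial keratin, had -0.82, -0.45 and -0.58 in AHDK, against 3.03, 0.69 and 0.86 in WT (-2.14, adjusted p = 0.049). WT array 1 stood above the others, and without it the change was -1.39 and no longer called. Gpx2, a glutathione peroxidase of epithelia, had 0.26, -0.29 and -0.23 in AHDK, against 1.83, 1.26 and 1.49 in WT (-1.61, SE 0.25, adjusted p = 0.0116). Its 2 groups did not overlap, and its call was kept with every array left out in turn.

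Eya1, a transcription cofactor and phosphatase of organ patterning, had 0.06, 0.08 and -0.09 in AHDK, against 2.01, 0.99 and 0.97 in WT (-1.30, SE 0.22, adjusted p = 0.013). Its DKO mean was 0.67 and its AKDH mean -0.16, and its call was lost without AHDK array 1 or AHDK array 3. Foxa2, which uterine glands need to form, had -0.62, -0.46 and -0.56 in AHDK, against 0.00, 0.58 and 0.38 in WT (-0.87, adjusted p = 0.0332; lost without any array other than WT array 1). Eya1 and Foxa2 were the 2 falls among 30 tract patterning factors, with 0 rises and a median of -0.12. Of all genes 1.23% were called lower and 2.3% higher. Of 19 uterine gland genes 1 fell (Foxa2) and 1 rose (Lif), with a median of 0.08. The AHDK mean was higher than that of WT for 10 of these 19 gland genes and for 8796 of all 19938 genes. Lef1, a partner of beta-catenin, was at -1.0 (adjusted p = 0.0963), and Hand2, a stromal factor induced by progesterone, at -0.75 (adjusted p = 0.227). Further large falls were Arsj, a sulfatase (-1.57), Tex15, a germ cell gene (-1.53), Degs2, a sphingolipid hydroxylase (-1.43), Adamts9, a matrix protease (-1.27), Sema5a, a guidance cue (-1.26), Sertad4 (-1.20), Syne2, a nuclear envelope linker (-1.16), Smoc2, a matrix protein (-1.01), and Plcb4, a phospholipase (-1.01). Each of these 9 lost its call without AHDK array 1 and without AHDK array 3. Magi1, a junction scaffold, had -0.23, -0.35 and -0.39 in AHDK, against 0.74, 0.91 and 0.37 in WT, and its fall (-1.0, adjusted p = 0.00907) was kept with every array left out in turn.

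The largest rise was that of Kap, which androgen induces in mouse kidney. It had 4.30, 3.88 and 4.75 in AHDK, against 0.01, -0.14 and 0.12 in WT (4.31, SE 0.40, adjusted p = 0.000768; kept with every array left out). The DKO arrays spread from -0.02 to 1.92, all under the AHDK arrays, and the direct difference was called (3.40, adjusted p = 0.0195), although not without AHDK arrays 1 or 3 or DKO array 2. Of 19 androgen-regulated and steroid metabolism genes the other called member was Hsd17b2, which inactivates oestradiol and testosterone. The list median was 0.29, and 2.3% of all genes were called higher. Hsd17b2 had 1.34, 1.20 and 1.35 in AHDK, against -0.66, -0.36 and -0.46 in WT (1.79, SE 0.25, adjusted p = 0.0089; lost without AHDK array 1).

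Further large rises were in secreted and membrane proteins. Serpina1c, a serine protease inhibitor of the alpha-1-antitrypsin family, had 1.93, 1.65 and 1.90 in AHDK, against 0.05, -2.15 and -2.27 in WT (3.28, SE 0.73, adjusted p = 0.0337). The WT arrays themselves spread over more than 2 units, and the copies of this family are near identical, so which copy changed is uncertain; Serpina1d was at 0.13 and not called. Tmprss11d, an airway trypsin-like protease, had 3.45, 1.72 and 2.75 in AHDK, against -0.13, 0.50 and -0.09 in WT (2.54, adjusted p = 0.0251). Slc26a4, an anion exchanger, had 2.91, 1.31 and 3.29 in AHDK, against 0.36, 0.33 and -0.72 in WT (2.51, adjusted p = 0.0317). AHDK array 2 was the lowest of its group for both. Ly6i, whose Ly6 relatives are similar in sequence, showed the same order, with 3.59, 1.79 and 3.10 in AHDK and -0.06, 0.75 and 0.68 in WT (2.37, adjusted p = 0.0453). Rnf186, a ubiquitin ligase of gut epithelium, had 2.20, 1.86 and 2.01 in AHDK, against 0.71, -0.02 and -1.06 in WT (2.14, adjusted p = 0.0116). Of these 5, Rnf186 lost its call without AHDK array 1 alone, and the others without 4 or 5 of the 6 arrays.

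Peg10, an imprinted gene of retroviral origin that the placenta requires, had 1.71, 1.44 and 2.07 in AHDK, against -1.73, -0.27 and -0.95 in WT (2.72, SE 0.37, adjusted p = 0.00733; kept with every array left out). Of 19 imprinted growth genes the only other call was Cdkn1c, a cell cycle inhibitor (0.65, adjusted p = 0.0357). The list median was -0.08, and 2.3% of all genes were called higher. A higher mean in AHDK was seen for 7 of the 19 and for 8796 of all 19938 genes. Il1a, an inflammatory cytokine that epithelia also make, had 3.06, 2.47 and 3.17 in AHDK, against 0.00, 1.09 and -0.07 in WT (2.56, adjusted p = 0.0337). Egln3, a prolyl hydroxylase of the oxygen-sensing pathway, had 2.23, 2.18 and 2.14 in AHDK, against -1.01, 0.67 and -1.14 in WT (2.68, adjusted p = 0.0257). Both lost their call without 5 of the 6 arrays.

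Signalling families changed in few members. Sfrp1, a secreted Wnt antagonist, was the only call among 47 Wnt pathway genes, with 0.18, 0.16 and 0.24 in AHDK, against -1.31, -1.66 and -1.60 in WT (1.71, SE 0.15, adjusted p = 0.000539; kept with every array left out). The DKO arrays had 0.06, 0.20 and 0.58, level with AHDK (difference -0.09, adjusted p = 0.937). Of 25 FGF pathway genes 3 rose and 0 fell: Dusp6, a feedback phosphatase of ERK signalling, by 1.06 (adjusted p = 0.0237), Fgf2 by 1.05 (adjusted p = 0.0488) and Fgf18 by 0.63 (adjusted p = 0.0276). The median of the FGF list was -0.02, equal to that of all genes, and 2.3% of all genes were called higher. Without AHDK array 1, AHDK array 3 or WT array 3, 0 FGF genes were called, and 1 was called without AHDK array 2 or WT array 1 and after quantile normalisation. Fgf2 lost its call with any array left out. Fgf18 had -0.59, -0.44 and -0.45 in AHDK and -1.35, -1.0 and -1.0 in WT, and AHDK was lower than AKDH (-0.76, adjusted p = 0.0229), whose arrays had 0.50, 0.23 and 0.08. Of 31 hedgehog and BMP genes and 21 retinoic acid genes 0 were called.

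Hormone-responsive genes were called at shares near those of all genes, of which 2.3% were called higher and 1.23% lower. Of 24 oestrogen-responsive genes 1 rose (Fgf18) and 0 fell, with a median of 0.64, and of 24 progesterone-responsive genes 0 were called, with a median of -0.25. AHDK arrays lay above all WT arrays for 8 of the oestrogen-responsive genes and below them for 1, against 14.2% and 15.4% of all genes. For the progesterone-responsive genes these counts were 1 and 4. The oestrogen receptor Esr1 had -0.45, -0.31 and -0.27 in AHDK and 0.01, -0.02 and -0.15 in WT (-0.29, adjusted p = 0.0812), and the progesterone receptor Pgr was at -0.34 (adjusted p = 0.493). Arrays differed widely within WT for the oestrogen-induced genes: lactoferrin, Ltf, had 0.28, 0.08 and 0.18 in AHDK and -3.45, 0.32 and -0.79 in WT (1.49, adjusted p = 0.277). Sprr2f, of a family of similar epithelial proteins, had 1.23, 1.17 and 1.31 in AHDK and -3.74, 1.35 and 0.52 in WT (1.86, adjusted p = 0.292). In both, WT array 1 was far under the other 5 arrays. Lif, a gland cytokine needed for implantation, rose slightly (0.54, adjusted p = 0.0405) and lost its call with any array left out.

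Lists of the main uterine cell types are read against 2.3% of all genes called higher and 1.23% called lower. Of 28 luminal epithelium genes 2 fell (Cldn8 and Krt23) and 0 rose, with a list median of 0.20. AHDK arrays lay above all WT arrays for 9 of the 28 and below them for 3, against 14.2% and 15.4% of all genes. The keratin Krt18 was at -0.02 (adjusted p = 0.955), and Epcam had 0.65, 0.35 and 0.75 in AHDK and -0.41, 0.00 and -0.44 in WT (0.87, adjusted p = 0.0969). Of 24 stroma, 22 smooth muscle and 22 endothelium and pericyte genes 0 were called, with medians of -0.19, -0.30 and -0.04. Vim was at 0.15 (adjusted p = 0.631) and Acta2 at -0.05 (adjusted p = 0.919). In whole uterus, fewer cells of a type and less RNA per cell cannot be told apart.

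**Figure D2:**
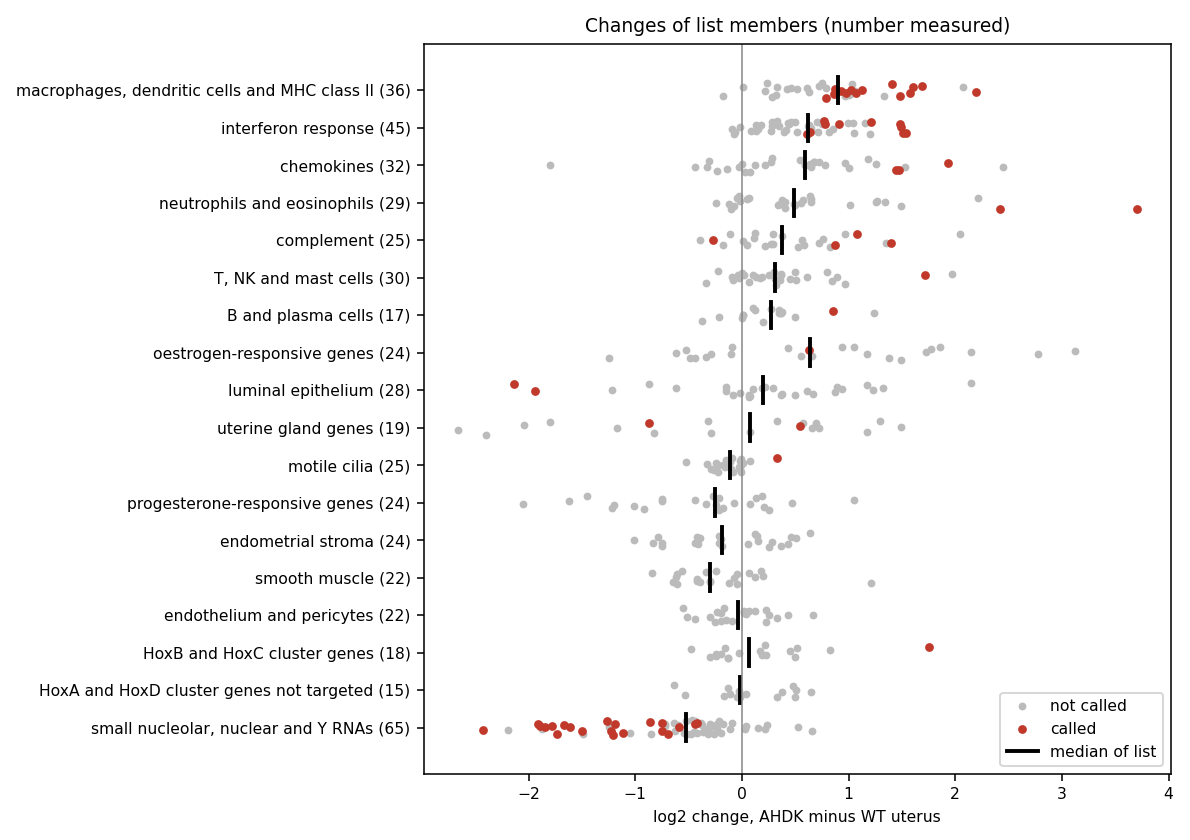
Change of every measured member of 18 gene lists, AHDK minus WT uterus, on the log2 scale (horizontal axis; number of genes measured in brackets). Red points are called genes, grey points are not called, and black bars are list medians. The macrophage list has a median of 0.90 and 14 red points, the small RNA list, put together after values were seen, a median of -0.52 and 21.

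Genes of macrophages, dendritic cells and the MHC class II pathway, which presents antigen to T cells, rose together. Of 36 genes 14 rose and 0 fell, against 2.3% of all genes called higher, and 29 of the 36 had AHDK arrays above all WT arrays, against 14.2% of all genes. Per-array medians of the list were 0.81, 0.75 and 0.46 in AHDK and -0.12, -0.23 and -0.03 in WT. The groups did not overlap, and AHDK array 3 was the lowest of its group. Itgam, the integrin chain of myeloid cells, had 1.56, 1.37 and 1.21 in AHDK, against -0.66, 0.26 and -0.54 in WT (1.69, SE 0.28, adjusted p = 0.0123). Adgre1, a surface receptor of mature macrophages, had 1.52, 1.42 and 0.77 in AHDK, against -0.37, -0.52 and 0.16 in WT (1.48, adjusted p = 0.0207). Csf1r, the receptor of the macrophage growth factor CSF1, had 1.27, 1.07 and 0.63 in AHDK, against 0.00, -0.23 and 0.00 in WT (1.07, adjusted p = 0.0401). In each of these 3 genes, every AHDK array exceeded every WT array. The call of Csf1r was lost with any array left out, and Adgre1 kept its call in 2 of the 6 fits with an array left out.

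The class II chain H2-Aa rose by 1.58 (adjusted p = 0.012), H2-DMa, which loads peptide onto class II, by 1.41 (adjusted p = 0.0114), and Cd74, the invariant chain, by 0.93 (SE 0.14, adjusted p = 0.00916). The lectin Cd209f, one of several similar copies, rose by 2.19 (adjusted p = 0.0218), the Fc receptor chain Fcer1g by 1.60 (adjusted p = 0.0141), and Cd68, a lysosomal protein of macrophages, by 1.13 (adjusted p = 0.0447; lost with any array left out). The lectins Clec4a3 and Clec4a1, which dendritic cells and macrophages carry, rose by 2.15 (adjusted p = 0.0116) and 2.12 (adjusted p = 0.00916). Gapt, a GRB2-binding membrane adaptor of leukocytes, had 1.98, 1.86 and 1.75 in AHDK, against -0.21, -0.36 and -0.30 in WT (2.15, SE 0.24, adjusted p = 0.00323; kept with every array left out). Spi1, the transcription factor PU.1 of myeloid cells, rose by 1.20 (adjusted p = 0.0356), a call that any single array could undo. The number of called macrophage list members was 0, 7 and 10 without AHDK arrays 1, 2 and 3, and 7, 6 and 6 without WT arrays 1, 2 and 3.

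The same list had array medians of 0.77, 0.16 and 0.44 in DKO, above those of WT and overlapping those of AHDK. Tested directly, 0 of the 36 differed between AHDK and DKO (median difference 0.21, beside -0.03 over all genes), and 5 were higher in AHDK than in AKDH with 0 lower (median 0.58, beside -0.01 over all genes). Over all genes 5 were called between AHDK and DKO (0.0251%; 1489 at an unadjusted p below 0.05) and 343 between AHDK and AKDH (1.72%). Fewer called genes between AHDK and DKO do not show that the genotypes act alike.

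Other leukocyte lists are read against 2.3% of all genes called higher and 14.2% with AHDK arrays above all WT arrays. Of 29 neutrophil and eosinophil genes 2 rose and 0 fell, with a median of 0.49, and 12 had AHDK arrays above all WT arrays. Retnlg, a resistin-like protein of neutrophils, had 3.57, 3.31 and 3.29 in AHDK, against -0.32, -0.29 and -0.33 in WT (3.70, SE 0.67, adjusted p = 0.0162). Ccr3, the eotaxin receptor of eosinophils, had 2.38, 2.13 and 2.17 in AHDK, against 0.00, -0.31 and -0.27 in WT (2.42, adjusted p = 0.017). Within AHDK and within WT these arrays were close together, whereas the SE draws on the spread of all 15 uterus arrays. Both calls were lost without AHDK array 1, AHDK array 3 or WT array 3. In DKO, 2 neutrophil and eosinophil genes were called higher than in WT, where 124 of all genes were. Of 30 T, NK and mast cell genes the mast cell protease Mcpt4 rose (1.72, adjusted p = 0.0487), and of 17 B and plasma cell genes Cd79b, a chain of the B cell receptor, rose (0.85, adjusted p = 0.0112). Of 32 chemokines 18 had AHDK arrays above all WT arrays, and 3 rose and 0 fell: Ccl6 (1.93, SE 0.26, adjusted p = 0.00733), Ccl9 (1.44, adjusted p = 0.0116) and Cxcl16 (1.47, adjusted p = 0.0276). Ccl6, a chemokine of mouse myeloid cells, had 0.90, 0.49 and 0.42 in AHDK, against -1.53, -1.43 and -1.05 in WT, and was called with every array left out in turn. Of 25 complement genes C1qb (0.87), C5ar1 (1.08) and C2 (1.40) rose and Mbl2 (-0.27) fell, and 12 had AHDK arrays above all WT arrays. Mcpt4 and Mbl2 lost their call with any array left out, and Cxcl16 with any except WT array 2.

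Interferon response genes, which cells switch on through the STAT and IRF factors, also rose together. Of 45 genes 10 rose and 0 fell, against 2.3% of all genes called higher, and the list median was 0.62. AHDK arrays lay above all WT arrays for 30 of the 45, against 14.2% of all genes. Oasl1, which restrains IRF7 translation, had 1.54, 1.39 and 1.67 in AHDK, against -0.40, 0.35 and 0.03 in WT (1.54, SE 0.26, adjusted p = 0.0122). Zbp1, a sensor of nucleic acid, had 1.71, 1.70 and 1.80 in AHDK, against -0.13, 0.62 and 0.19 in WT (1.51, adjusted p = 0.0217). Irf7, a master factor of the response, had 1.82, 1.72 and 1.58 in AHDK, against -0.01, 0.42 and 0.24 in WT (1.49, adjusted p = 0.0348). In all 3, AHDK arrays were closer to each other than WT arrays were.

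The other called members were Ifi27l2a (1.48), Oas3 (1.21), Bst2, the virus tether tetherin (0.91), Cmpk2 (0.78), Oas1a (0.77), Tapbp, which loads peptide onto class I (0.64), and Stat2 (0.61). Irf7, Cmpk2 and Stat2 lost their call with any array left out, and Bst2 and Oas1a kept it in 1 of the 6 fits with an array left out. Oas1a has near-identical neighbouring copies, so its value may hold their signal. In the direct tests, 0 members differed between AHDK and DKO, where 0.0251% of all genes were called. The median difference was 0.49, beside -0.03 over all genes. Against AKDH, 10 members were higher and 1 lower in AHDK (median 0.66, beside -0.01 over all genes). Of all genes, 0.933% were called higher and 0.787% lower in AHDK than in AKDH. For Irf7 the DKO arrays spread from -0.46 to 1.24, with DKO array 1 the highest, and the same array was the highest of DKO for Zbp1 and Oasl1. The number of called interferon members was 0, 6 and 3 without AHDK arrays 1, 2 and 3, 2, 5 and 1 without WT arrays 1, 2 and 3, and 6 after quantile normalisation.

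**Figure D3:**
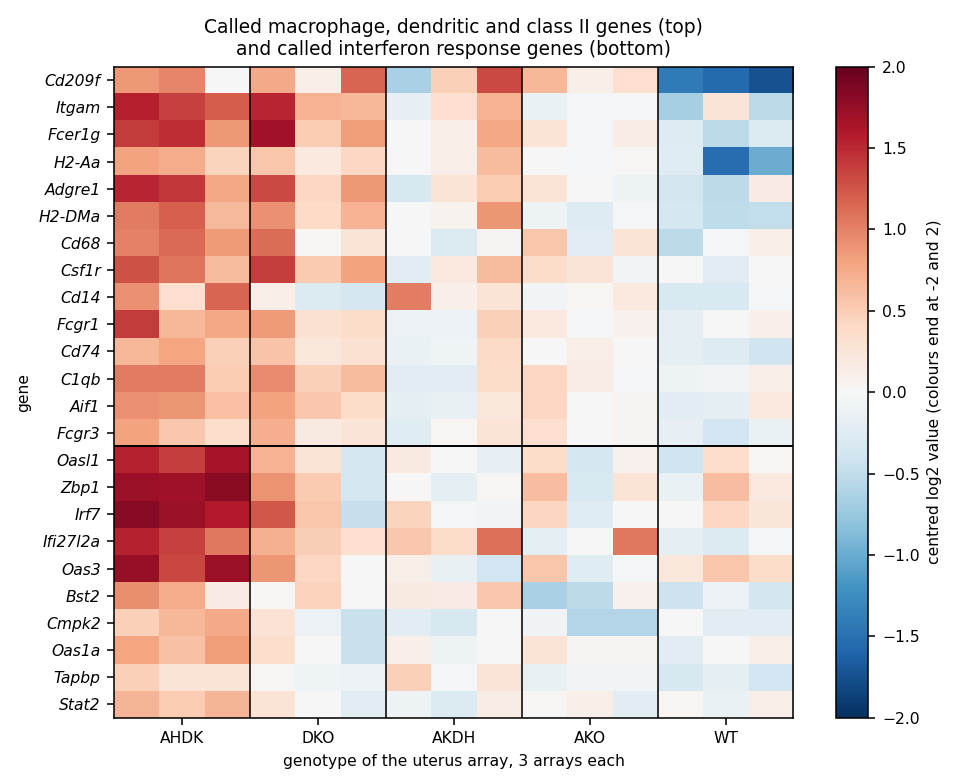
Centred log2 values of the called macrophage, dendritic cell and class II genes (top block) and the called interferon genes (bottom block), 1 row a gene and 1 column an array, 3 arrays a genotype. Colours end at -2 and 2. The AHDK columns are mostly red in both blocks; in the top block the DKO columns are mostly red too, DKO array 1 most, and DKO array 1 is also the reddest of its genotype in the bottom block.

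The interferon list is defined by a shared response, whose known DNA element is built on GAAA, any 2 bases and GAAA. Promoters are shown for 3 called genes of the list that held this motif. The motif was searched on both strands in windows of 250 bases before to 50 after each RefSeq start, build GRCm38.p6; capitals mark its matches, as the reverse complement where they lie on the other strand.
Oas3 (chr5:120777610-120777909, minus strand): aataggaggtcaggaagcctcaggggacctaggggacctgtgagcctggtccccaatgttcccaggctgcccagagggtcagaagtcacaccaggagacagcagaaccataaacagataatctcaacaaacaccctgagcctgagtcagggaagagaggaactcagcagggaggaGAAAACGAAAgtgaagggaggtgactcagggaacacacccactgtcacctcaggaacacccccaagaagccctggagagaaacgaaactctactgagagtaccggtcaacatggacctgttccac
Stat2 (chr10:128270248-128270547, plus strand): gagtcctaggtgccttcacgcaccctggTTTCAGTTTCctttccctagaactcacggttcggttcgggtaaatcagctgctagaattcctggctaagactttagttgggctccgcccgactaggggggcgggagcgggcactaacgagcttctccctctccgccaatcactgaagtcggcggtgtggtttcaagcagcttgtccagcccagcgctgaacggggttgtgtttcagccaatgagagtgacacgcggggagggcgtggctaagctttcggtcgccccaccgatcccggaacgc
Bst2 (chr8:71537423-71537722, minus strand): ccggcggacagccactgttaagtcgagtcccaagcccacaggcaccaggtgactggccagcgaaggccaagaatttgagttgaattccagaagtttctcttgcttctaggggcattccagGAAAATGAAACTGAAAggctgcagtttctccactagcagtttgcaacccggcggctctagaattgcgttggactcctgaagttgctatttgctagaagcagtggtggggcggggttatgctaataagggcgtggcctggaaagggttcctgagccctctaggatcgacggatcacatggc
Counted from the start site, the first matched base lies at -75 in Oas3, at -222 in Stat2, and at -130 and -124 for the 2 overlapping matches of Bst2. Of the 31 list genes with a promoter entry 14 held the motif (45.2%), against 607 of 15614 genes tested (3.89%) and 1 of 26 of the macrophage list. Within the list, called members held it in 4 of 8 and members not called in 10 of 23. Among called members Oas1a held it too and is not shown, and Irf7, Oasl1, Cmpk2 and Tapbp did not hold it. Of genes called higher in AHDK 21 of 360 held it (5.83%), and of genes called lower 5 of 165 (3.03%). A match is a description of letters and not a bound site.

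AHDK was set directly against DKO, from which it differs by 1 mutant Hoxa copy. Of 5 called genes 2 were higher in AHDK (Kap and Smpd3; 0.01% of all genes) and 3 lower (Rxfp2, Cldn8 and Slc26a7; 0.015%). Smpd3, neutral sphingomyelinase 2, had 0.67, 0.65 and 0.46 in AHDK, against -0.04, -0.25 and -0.44 in DKO (0.84, adjusted p = 0.0454). WT had -0.41, -0.33 and -0.50, and the AHDK change against WT was also called (1.01, SE 0.11, adjusted p = 0.0034). Slc26a7, an anion exchanger, had -0.41, 0.49 and 0.30 in AHDK, against 2.39, 3.89 and 2.37 in DKO (-2.76, adjusted p = 0.0495). Its WT arrays had 2.17, 1.03 and 1.82, above all AHDK arrays, but the AHDK change against WT was just not called (-1.55, adjusted p = 0.0505). Smpd3, Slc26a7 and Cldn8 each kept their AHDK against DKO call only without DKO array 1, without which 71 genes were called (44 higher, 27 lower). The count was 2, 5 and 1 without AHDK arrays 1, 2 and 3, and 1 and 2 without DKO arrays 2 and 3. The DKO arrays were uneven for the 458 genes that rose in AHDK: DKO array 1 was the highest of its 3 arrays for 299 of them (65.3%), against 31.3% of all genes. Median values over these 458 genes were 0.43, 0.30 and 0.38 in AHDK, 0.26, 0.11 and 0.10 in DKO, and -0.29, -0.23 and -0.28 in WT, where AHDK and WT are the arrays that chose them.

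**Figure D4:**
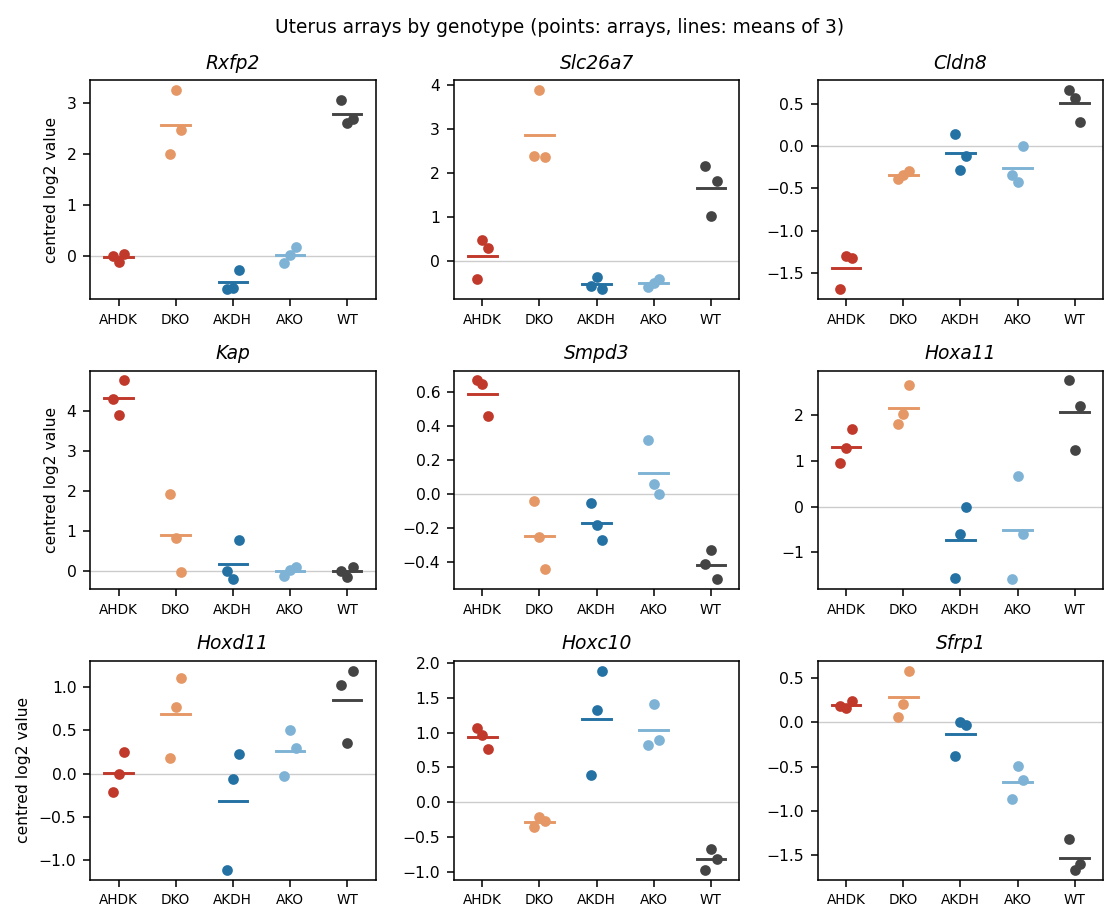
Centred log2 values by uterus genotype for 9 genes, 1 panel each with its own vertical scale; points are arrays and lines are means of 3. Rxfp2 and Slc26a7 are low in AHDK, AKDH and AKO and high in DKO and WT, Kap is high in AHDK at 3.88 to 4.75, and Sfrp1 is low in WT, from -1.66 to -1.31.

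AHDK was also set against AKDH, which keeps its 1 normal copy at HoxD and not at HoxA. Of 343 called genes 186 were higher in AHDK (0.933% of all genes) and 157 lower (0.787%; 3110 at an unadjusted p below 0.05). That balance turned without AKDH array 1 (40 higher, 66 lower), without AKDH array 2 (191 higher, 397 lower) and after quantile normalisation (297 higher, 304 lower). Kap was the largest difference (4.11, adjusted p = 0.00264), and Prap1, a proline-rich secreted protein that oestrogen induces in uterus, had 2.62, 2.73 and 2.37 in AHDK, against -1.09, -0.18 and 0.00 in AKDH (3.00, adjusted p = 0.0477). Trpv6, an epithelial calcium channel, had 2.50, 2.64 and 2.66 in AHDK, against 0.00, -0.28 and -1.0 in AKDH (3.03, adjusted p = 0.0476). Neither Prap1 nor Trpv6 was called against WT, where they were at 1.73 and 1.78 with WT arrays spread over more than 2 units. Steap1, a membrane protein, differed by 2.85 (adjusted p = 0.0471), and Pla2g2e, a secreted phospholipase, by 2.69 (adjusted p = 0.0448). Sprr2d, from the family of similar copies named above, was higher by 3.08 (adjusted p = 0.0492).

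Lower in AHDK than in AKDH were Meig1, a gene of male meiosis, with -1.44, -1.18 and -0.97 in AHDK, against 3.10, 0.51 and 2.15 in AKDH (-3.12, adjusted p = 0.0323), and Rtn1, a reticulon, with -1.47, -1.31 and -1.11 in AHDK, against 1.80, 0.71 and 1.41 in AKDH (-2.60, adjusted p = 0.0148). AKDH array 2 was the lowest of its group for both. Susd2, a membrane marker of stromal stem cells in human endometrium, had -1.72, -1.59 and -1.68 in AHDK, against 0.89, 0.43 and 0.87 in AKDH (-2.39, adjusted p = 0.00839). St6gal2, a sialyltransferase (-2.82), Ano2, a chloride channel (-2.78), the interleukin 17 receptor chain Il17rb (-2.48), Ms4a8a (-2.40) and the transporter Abcb5 (-2.29) were lower too. Of these 8 and of the largest 8 higher genes, Kap and Susd2 kept their call with every array left out in turn. Hoxc8 was lower in AHDK than in AKDH, whose arrays had 0.04, 0.73 and 1.17 (-1.19, adjusted p = 0.0334). The count was 14, 50 and 39 without AHDK arrays 1, 2 and 3, and 106, 588 and 111 without AKDH arrays 1, 2 and 3.

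Of the 704 calls against WT, 28 were kept whichever of the 6 arrays was left out. Besides Rxfp2, Kap, Peg10, Cldn8, Gpx2, Magi1, Sfrp1, Gapt, Ccl6 and Smpd3, these included further genes that are named here after their values were seen. Trim15, a ubiquitin ligase of the TRIM family, had 1.27, 1.34 and 1.76 in AHDK, against -0.17, -0.17 and -0.45 in WT (1.72, SE 0.21, adjusted p = 0.00491). Ube2l6, which conjugates the interferon-induced modifier ISG15, had 1.03, 0.97 and 1.10 in AHDK, against -0.26, -0.24 and -0.01 in WT (1.20, SE 0.14, adjusted p = 0.00425). Sptlc2, a subunit of the enzyme that starts sphingolipid synthesis, had 0.48, 0.31 and 0.54 in AHDK, against -0.28, -0.32 and -0.26 in WT (0.73, SE 0.09, adjusted p = 0.00378). Aqp9, a water and glycerol channel, had 0.57, 0.58 and 0.63 in AHDK, against -0.06, 0.00 and -0.07 in WT (0.64, adjusted p = 0.00787). In these 4 genes the gap between genotypes was wider than the range within either. Slc25a24, a mitochondrial carrier, rose by 0.80 (adjusted p = 0.00368), the pyrimidine salvage gene Uprt by 1.60 (adjusted p = 0.00503), and Dapp1, a leukocyte signalling adaptor, by 1.07 (adjusted p = 0.00733). The RNA polymerase subunit Polr2k (-0.58, adjusted p = 0.00491), the xylosyltransferase Gxylt1 (-0.57, adjusted p = 0.00605) and the splicing factor Luc7l2 (-0.65, adjusted p = 0.00629) fell.

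Genes near the mutated clusters were counted as well. Within 20 Mb of HoxD 9 of 457 genes were called (1.97%), 8 higher and 1 lower, and within 20 Mb of HoxA 7 of 318 (2.20%), 3 higher and 4 lower, beside 3.53% of all genes.

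Small RNA genes separated AHDK from WT beyond Mir10b. Of 65 small nucleolar, nuclear and Y RNA genes, a list put together after values were seen, 21 fell and 0 rose, with a median of -0.52, beside 1.23% of all genes called lower. Against WT, 39 of these 65 genes fell in AKDH, 9 in DKO and 1 in AKO, beside 528, 70 and 10 of all genes. Their mean over genes was -0.249, 0.192 and -0.0287 in AHDK and 0.933, 0.511 and 0.624 in WT, with no overlap. Snord47, which guides methylation of ribosomal RNA, had -0.29, 0.03 and -0.12 in AHDK, against 1.23, 0.97 and 1.09 in WT (-1.23, SE 0.12, adjusted p = 0.00148; kept with every array left out). With this mean as a covariate 0 genes were called by limma (931 at an unadjusted p below 0.05). Because the score does not overlap between the genotypes, it and genotype cannot be told apart.

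**Figure D5:**
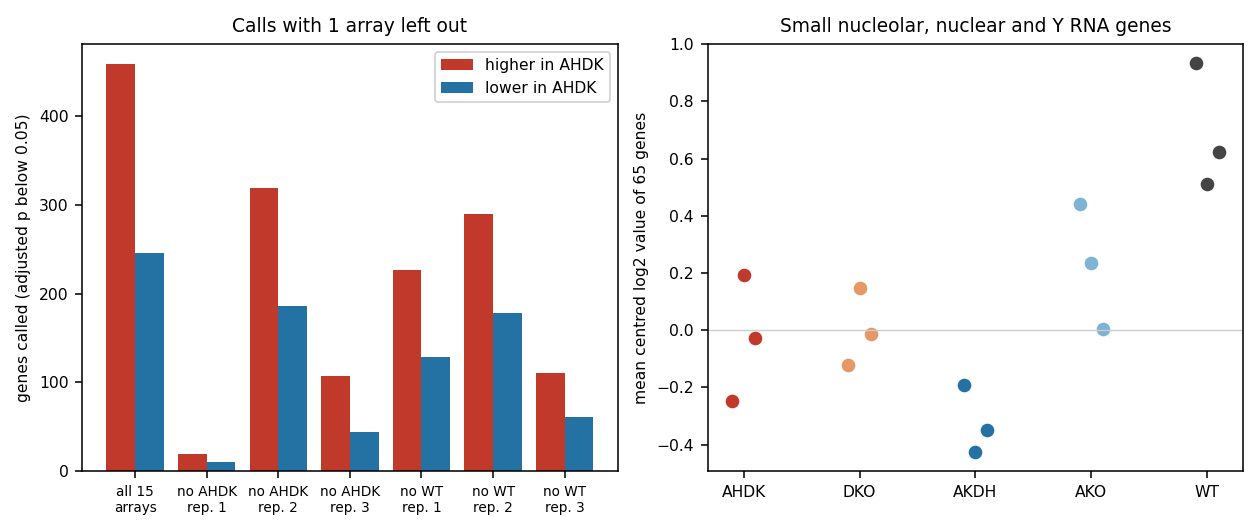
Left, number of genes called higher (red) and lower (blue) in AHDK than in WT, with all 15 arrays and with 1 array left out. Right, mean centred log2 value of 65 small RNA genes in each uterus array by genotype. Only 31 genes are called without AHDK array 1, and the WT arrays, at 0.511 to 0.933, lie above every AHDK, DKO, AKDH and AKO array.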

How the data were processed

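RNA of each uterus was measured on an Affymetrix whole-transcript array. Per the labels' protocols, 300 ng of total RNA was amplified to cDNA, which was then cut and tagged with biotin. The deposited values are log values, taken as log2, and every probe set has a median of 0 over the 21 female arrays, so absolute signal and signal over background are lost. Their log base, summarisation and normalisation are not stated in the sources used, and a higher value was read as more RNA. The number of arrays limits the precision.

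Probe sets were named from the platform's annotation (21789 with 1 symbol, 1621 with several, 5446 with none), and 21698 matched RefSeq (GRCm38.p6) by gene ID. A gene with several probe sets was given their mean. limma 3.58.1 in R 4.3.3 (lmFit, eBayes) was fitted to group means of all 15 uterus arrays, with Benjamini-Hochberg adjustment over 19938 genes, and it was tested on simulated data. The text names the targeted genes, the 15 largest called rises and falls without overlap against WT, the 8 largest each way in the other 2 comparisons, and up to 6 members of each list by adjusted p, passing over uncharacterised transcripts, olfactory and vomeronasal receptors, pseudogenes and small RNAs. Other named genes were chosen after their values were seen. The members and gene lists were chosen with earlier results of these data known, and 8 lists, those of small RNA and microRNA genes among them, were added after values were seen. Alternatives were leaving out each array, fitting 2 groups only, array weights, median centring, quantile normalisation, a variance filter that kept the genes at or above the median variance, a robust prior, single probe sets, a replicate block and a small RNA score as covariate. The planned filter on dim probe sets could not be applied to centred values, and the variance filter took its place.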

Additional observations from a re-analysis of the deposited data

How the results depend on the processing

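Of the 110 named genes called against WT, none turned its sign in the alternatives run for single genes. The named genes called against DKO and AKDH did not either. For named genes that were not called, only a call in the opposite direction was looked for, and none was found. The balance of higher and lower calls did turn against DKO and AKDH. It also turned for the claudin list after the variance filter or with array weights (2 higher, 1 lower in each). With array weights it turned for the cilia (1 higher, 3 lower) and luminal (5 higher, 3 lower) lists. Against WT, 704 calls became 3227 with array weights, 157 with a log2 change of at least 1, 0 with the small RNA score as covariate, and 31 to 505 with 1 array left out; the other settings gave 538 to 940. Calls among list members, 62, became 192 with array weights, 0 with the covariate, and 8 to 54 with 1 array left out (8, 40 and 27 without AHDK arrays 1, 2 and 3; 32, 54 and 22 without WT arrays 1, 2 and 3). Against DKO, 5 calls became 1 with 2 groups only, 1164 with array weights, 11 after the variance filter (7 higher, 4 lower), and 1 to 71 with 1 array left out; quantile normalisation gave 4 higher and 3 lower. Against AKDH, 343 calls became 216 with 2 groups only, 1620 with array weights, 601 after quantile normalisation (297 higher, 304 lower), and 14 to 588 with 1 array left out. The cause was not tested. Replicate numbers did not pair the samples (correlations of same-numbered arrays from -0.19 to 0.062 for AHDK with WT, from -0.197 to 0.328 for AHDK with DKO, and from -0.333 to -0.196 for AHDK with AKDH), and a replicate block gave 690, 5 and 309 calls in the 3 comparisons. Of 110 named genes called against WT, 12 were called in every alternative except the covariate: Ccl6, Cldn8, Gapt, Gpx2, Kap, Luc7l2, Magi1, Peg10, Rxfp2, Sfrp1, Snhg15 and Snord47. Single probe sets were run for counts only.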

Other observations

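Gene lists put together after their values had been seen describe further groups of called genes, and nothing is supported by their counts. Of 24 hypoxia-inducible genes 6 rose and 0 fell in AHDK against WT uterus, with a median of 0.41 beside -0.02 over all genes and 2.3% of all genes called higher. Car9, a carbonic anhydrase of the cell surface, had 1.33, 0.58 and 1.85 in AHDK, against -0.77, -0.08 and -0.58 in WT (1.73, adjusted p = 0.0203). The lactate carrier Slc16a3 had 0.75, 0.46 and 1.21 in AHDK, against -0.42, -0.33 and 0.00 in WT (1.06, SE 0.18, adjusted p = 0.013). The oxidase Ero1a (0.94, adjusted p = 0.0117), lactate dehydrogenase Ldha (0.70, adjusted p = 0.0217), the glycolytic enzyme Tpi1 (0.50, adjusted p = 0.0288) and Egln3 (2.68) rose too. Of 6 genes of the phagocyte NADPH oxidase 4 rose: Cybb, its catalytic chain (1.47, adjusted p = 0.04), Ncf1 (1.08, adjusted p = 0.0245), Rac2 (1.34, adjusted p = 0.0123) and the proton channel Hvcn1 (1.64, adjusted p = 0.0237). Cybb had 1.47, 1.10 and 0.81 in AHDK, against -0.52, -0.68 and 0.18 in WT. Cybb and Ncf1 lost their call with any array left out, and Egln3 and Tpi1 kept it in 1 of the 6 fits with an array left out.

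Further falls were in RNAs and proteins of the nucleus. Of 12 nuclear and small-RNA host noncoding RNAs 6 fell and 0 rose, with a median of -0.70, beside 1.23% of all genes called lower, which also stands for the splicing and chromatin lists. Xist, the RNA that coats the inactive X chromosome, had -0.11, -0.15 and 0.07 in AHDK, against 0.72, 0.59 and 0.62 in WT (-0.71, adjusted p = 0.0237). Snhg15, a host of small nucleolar RNA, fell by 0.94 (SE 0.10, adjusted p = 0.00278), the RNA of RNase MRP, Rmrp, by 0.94 (adjusted p = 0.0411), and the telomerase RNA Terc by 0.82 (adjusted p = 0.0382). Of 21 splicing-related genes 6 fell, among them Snrnp70 (-0.68, adjusted p = 0.0116) and Luc7l3 (-0.83, adjusted p = 0.0222), and of 22 chromatin regulators 5 fell, among them the remodeller Chd2 (-0.91, adjusted p = 0.015) and the methyltransferase Kmt2a (-0.80, adjusted p = 0.0425). Terc and Kmt2a lost their call with any array left out, Xist and Rmrp kept it in 1 of those 6 fits, and Snhg15 kept it without each. AHDK and DKO were not called as different for any member of these 3 lists, but only 0.0251% of all genes were. Median differences of the 3 lists were -0.20, -0.10 and -0.15, beside -0.03 over all genes. Against WT, 7, 8 and 4 members of these lists were called lower in AKDH, where 528 of all genes were. In DKO 3, 3 and 1 members were called lower, where 70 of all genes were. The small RNA mean, given above, moved with the falls in AHDK, and its part in them was not tested.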
